A study of Mus musculus with 12 samples.

Results

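Genes of the MHC class I antigen presentation pathway were examined in the transcriptome of purified brain myelin at 4 ages. The members were the rows of the deposited table of normalized read counts with the symbols B2m, H2-D1, H2-K1, Tap1, Tap2, Tapbp, Psmb8, Psmb9, Psmb10 and Nlrc5, which are 10 of the 21937 genes listed. The symbols were chosen for the pathway, not by a rule on a measured value, but with earlier results of these data known. Brains of wild-type mice (WT in the labels, male c57Bl6/N where the study names sex and strain) were separated on sucrose gradients, and the light-weight membrane fraction was taken as myelin. Its RNA was sequenced in 3 libraries each at postnatal day 18 (P18), at P75, at 6 months of age and at 24 months of age, 12 libraries in total. The labels do not say that the libraries of an age came from separate animals, so p-values measure the spread between these libraries, which may be technical. The purified fraction is a model of the myelin sheath only as far as the gradient separates it from fragments of other brain cells.

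Nucleated cells display peptides from their own proteins on MHC class I molecules, which are read by CD8+ T cells. A class I molecule consists of a polymorphic heavy chain, encoded in mice by H2-K1 and H2-D1, and the invariant light chain beta-2-microglobulin (B2m). Peptides are cut by the proteasome, pumped into the endoplasmic reticulum by the transporter of Tap1 and Tap2, and loaded onto the heavy chain with the help of tapasin (Tapbp). Interferons exchange the constitutive catalytic subunits of the proteasome for Psmb8, Psmb9 and Psmb10, and induce Nlrc5, a coactivator that acts on class I promoters through DNA-bound RFX, CREB and NF-Y factors. In the brain, microglia and endothelial cells are known for class I expression, whereas levels in resting neurons and oligodendrocytes are low.

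In the mm9 genome (NCBIM37) used for the files, 7 of the 10 members lie on chromosome 17, within 1352 kb. Psmb9 (chr17:34318932-34324709, minus strand), Tap1 (chr17:34324498-34334170), Psmb8 (chr17:34334666-34338399) and Tap2 (chr17:34340472-34353266) are neighbours within 34.3 kb, as the map of members on chromosome 17 shows. H2-K1 (chr17:34132962-34137278, minus strand) and Tapbp (chr17:34052844-34066235) lie on one side of this cluster, and H2-D1 (chr17:35399675-35404444) on the other. B2m lies on chromosome 2 (chr2:121973422-121978819), Psmb10 on chromosome 8 (chr8:108459628-108462292, minus strand) and Nlrc5 also on chromosome 8 (chr8:96996663-97051172). The ends of Psmb9 and Tap1 overlap by 212 bases on opposite strands. Whether the authors' counting used the strand is not given in the sources used here, so reads from this overlap cannot be assigned with certainty.

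**Figure D1:**
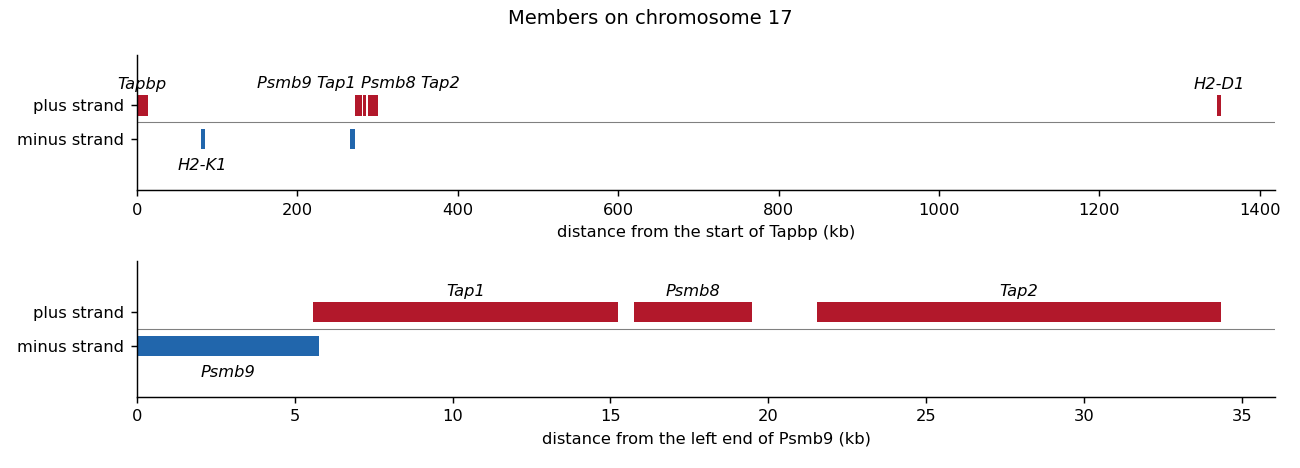
Position of the 7 members on chromosome 17, as distance in kb along the mm9 annotation from the start of Tapbp (upper) and from the left end of Psmb9 (lower), with bars drawn to scale above the line for the plus strand and below it for the minus strand. Psmb9, Tap1, Psmb8 and Tap2 lie within 34.3 kb, whereas H2-D1 lies at the far end of the 1352 kb.

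Promoter sequences, taken as 250 bases before to 50 bases after the gene start in RefSeq (GRCm38.p6, another build than that of the files), were matched for 8 of the 10 members, leaving Tap2 and Nlrc5. Those of the light chain, both heavy chains and Tap1, at the centre of the pathway, are printed here because they hold the letters on which class I regulators are known to act. Each is given 5′ to 3′ on the strand of its gene, for B2m at chr2:122147437-122147736, H2-D1 at chr17:35262844-35263143, H2-K1 at chr17:34000298-34000597 (minus strand) and Tap1 at chr17:34187306-34187605. Capitals mark every match, on either strand, to AANNGAAA (the core of an interferon regulatory factor site), GGGATTCCC (a kappa-B site), TGACG (a cyclic AMP response element core, bound by CREB) and CCAAT (bound by NF-Y), none of which overlap each other.
B2m: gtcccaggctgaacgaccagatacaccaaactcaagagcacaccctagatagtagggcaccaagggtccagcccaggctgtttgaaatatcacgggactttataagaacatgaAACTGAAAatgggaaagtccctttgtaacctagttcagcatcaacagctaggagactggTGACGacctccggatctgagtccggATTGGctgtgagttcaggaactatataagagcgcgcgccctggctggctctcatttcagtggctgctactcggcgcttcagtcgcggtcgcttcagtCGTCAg
H2-D1: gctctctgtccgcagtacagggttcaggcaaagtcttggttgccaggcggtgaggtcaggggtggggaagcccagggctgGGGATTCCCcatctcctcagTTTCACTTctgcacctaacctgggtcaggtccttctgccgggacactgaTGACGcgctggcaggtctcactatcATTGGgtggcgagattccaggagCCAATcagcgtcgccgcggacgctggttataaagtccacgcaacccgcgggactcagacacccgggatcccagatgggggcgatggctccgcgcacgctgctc
H2-K1: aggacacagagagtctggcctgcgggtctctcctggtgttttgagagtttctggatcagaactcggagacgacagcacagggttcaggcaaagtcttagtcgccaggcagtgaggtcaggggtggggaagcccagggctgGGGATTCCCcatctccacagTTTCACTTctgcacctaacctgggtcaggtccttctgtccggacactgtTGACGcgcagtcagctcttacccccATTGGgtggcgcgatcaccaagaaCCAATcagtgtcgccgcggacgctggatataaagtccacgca
Tap1: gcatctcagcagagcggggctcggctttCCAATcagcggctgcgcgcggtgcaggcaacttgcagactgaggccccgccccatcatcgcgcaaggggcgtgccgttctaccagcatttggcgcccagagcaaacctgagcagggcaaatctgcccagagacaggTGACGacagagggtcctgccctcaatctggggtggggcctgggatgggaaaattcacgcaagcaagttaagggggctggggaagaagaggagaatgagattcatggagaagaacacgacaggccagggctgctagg

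Among the 8 promoters, AANNGAAA was found in 3 (B2m, H2-D1 and H2-K1), compared with 24.2% of all 27025 RefSeq promoters of this length. GGGATTCCC was found in 2 (H2-D1 and H2-K1), compared with 0.37% of all promoters. Only this exact form was searched, so other forms of a kappa-B site were not counted. TGACG was found in 5, compared with 21% of all promoters, and CCAAT in 6, compared with 37.9%. H2-D1 and H2-K1 held the matches in the same order, from GGGATTCCC through TTTCACTT (AANNGAAA on the other strand) and TGACG to a pair of CCAAT matches. The windows of Tap1 and Psmb9 overlap by 275 of their 300 bases on opposite strands, so that their matches are shared. The promoters of Psmb8 and Psmb10 held none of the 4 motifs, and that of Tapbp held CCAAT only. The 4 motifs were chosen because class I regulators are known to act on them. Matches in class I promoters were therefore likely beforehand, and the shares are given as a description. A match describes the letters in these windows and does not show that a factor bound there.

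The libraries held between 20299052 and 27214385 reads on genes, and between 16949 and 17261 genes with at least 1 read. The defining myelin transcripts were detected in all libraries, with Mbp alone taking 4.76% to 20.8% of reads. Values are given as the authors' normalized read counts, which correct for library size but not for gene length. Ages were compared with limma on log2(normalized read count + 1) over 14634 genes, and a gene was called changed at a Benjamini-Hochberg adjusted p under 0.1, with log2 changes given on that scale.

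Between P18 and 24 months, 9 of the 10 members rose and 1, Psmb10, fell. Of all genes tested, 34.7% were called higher and 34.3% lower in this comparison. The median log2 change was 1.51 over the members and -0.01 over all genes. Nlrc5 passed the filter on low values (a 12-library mean of 10 or more) only through its 24-month libraries, and without it 8 of 9 members rose and 1 fell, with a median log2 change of 1.72. The rises ran from 1.83-fold for Tapbp to 5.39-fold for Tap2. In bulk myelin RNA, a change in the number of cells or fragments of a type cannot be told apart from a change in RNA per cell.

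The steps between consecutive ages, which share the age between them, were also examined. From P18 to P75, 7 members rose and 0 fell, where 25.9% of all genes rose and 22.9% fell. From P75 to 6 months, 5 rose and 1 fell, where 31.2% of all genes rose and 29.4% fell. From 6 to 24 months, 8 rose and 0 fell, where 16.6% of all genes rose and 12.7% fell, and without Nlrc5 7 of 9 rose. The number of all genes called in this step varied with the library left out. It was 2478, 2763, 2821 or 2492 in place of 4287 without 6mo replicate 1, 6mo replicate 2, 24mo replicate 1 or 24mo replicate 2. It was 3863 without 6mo replicate 3, 3578 without 24mo replicate 3 and 5323 without P18 replicate 3. Leaving out any 1 library left 7 to 8 members called. Nlrc5 was the only member whose call from 6 to 24 months changed with a library left out. The members' median log2 changes were 0.65, 0.26 and 0.89 in the 3 steps. In the wider comparison of P75 with 24 months, 7 rose and 1 fell, where 28.8% of all genes rose and 26.1% fell.

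**Figure D2:**
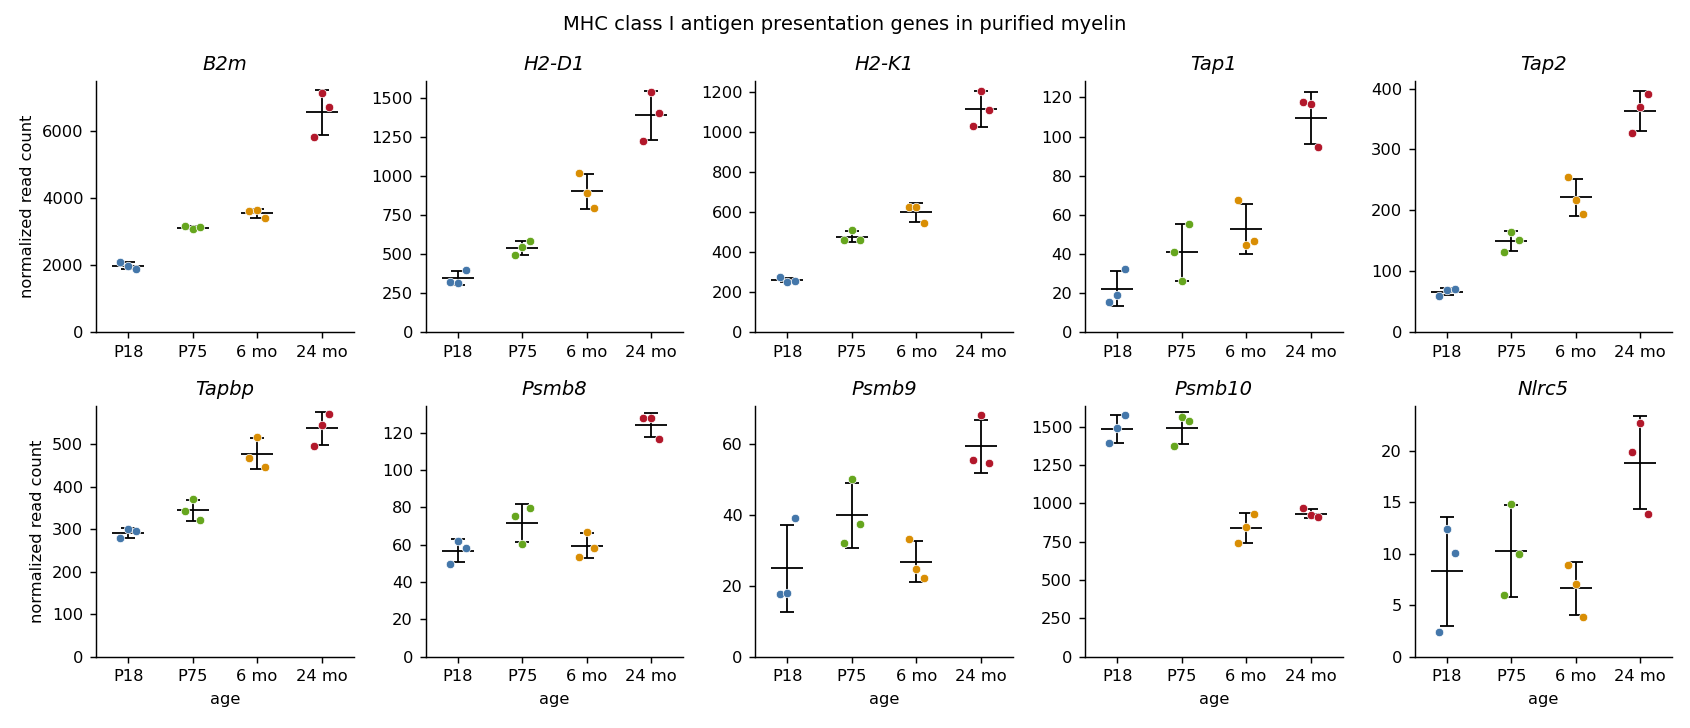
Normalized read count of each of the 10 members (vertical axes from 0) at P18, P75, 6 months and 24 months, with 1 point per library, the horizontal bar at the mean and the error bar at the SD of 3 libraries. For B2m, H2-D1, H2-K1 and Tap2 the points of each age lie above those of the age before, Psmb8 and Psmb9 are highest at 24 months, and Psmb10 is lower at the later 2 ages.

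The light chain B2m was the most abundant member. Its normalized read count was 2082, 1985 and 1891 at P18, 3159, 3071 and 3133 at P75, 3610, 3635 and 3404 at 6 months and 5827, 7146 and 6714 at 24 months. The libraries of no 2 ages overlapped, and the 24-month libraries spread most. B2m rose 1.57-fold from P18 to P75 (log2 change 0.65, SE 0.08, limma adjusted p = 2.46e-05) and 1.84-fold from 6 to 24 months (log2 change 0.88, SE 0.08, limma adjusted p = 3.02e-05). The step from P75 to 6 months was small (log2 change 0.19, SE 0.08, limma adjusted p = 0.0771). That call was lost when any of the 3 P75 libraries, or 6mo replicate 1 or 2, was left out, with adjusted p from 0.115 to 0.173, and under scaling to the same total (adjusted p = 0.195) or quantile normalization (adjusted p = 0.144). From P18 to 24 months the rise was 3.29-fold (log2 change 1.72, SE 0.08, limma adjusted p = 2.8e-10).

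Both classical heavy chains rose at every step. H2-D1 was at 322, 319 and 397 at P18, 496, 543 and 583 at P75, 1022, 895 and 798 at 6 months and 1229, 1543 and 1404 at 24 months. The libraries again separated completely by age. Its steps were even, with log2 changes of 0.65, 0.74 and 0.62 (SE 0.12 each), and the limma adjusted p from 6 to 24 months was 0.00301. H2-D1 was 4.02-fold higher at 24 months than at P18 (log2 change 2.01, SE 0.12, limma adjusted p = 9.25e-10).

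H2-K1, the other heavy chain, showed less even steps. Its normalized read counts were 273, 252 and 257 at P18, 461, 508 and 462 at P75, 626, 627 and 545 at 6 months and 1028, 1206 and 1107 at 24 months. No libraries of different ages overlapped. The log2 changes of the 3 steps were 0.87, 0.33 and 0.89 in order of age (SE 0.09 each), and the limma adjusted p of the smallest step was 0.00751. From P18 to 24 months H2-K1 rose 4.25-fold (log2 change 2.09, SE 0.09, limma adjusted p = 1.12e-10). Of the 50-base windows of the annotated transcripts, 12.8% of H2-D1 and 7.29% of H2-K1 also occur in other genes, mostly class I relatives, so part of their reads could have been assigned otherwise, whereas no window of B2m was shared.

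Of the chains that form the peptide transporter, Tap2 was the member with the largest rise. It was at 59.4, 68.9 and 71.3 at P18, 132, 165 and 151 at P75, 254, 217 and 194 at 6 months and 327, 370 and 392 at 24 months. Each age lay above the one before without overlap. The log2 changes of the 3 steps were 1.16, 0.56 and 0.71 (SE 0.13 each), all called. At 24 months Tap2 was 5.39-fold higher than at P18 (log2 change 2.43, SE 0.13, limma adjusted p = 6.16e-10).

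Tap1 was less abundant and more variable. The P18 libraries were at 15.4, 19.2 and 32.1, those of P75 at 41.1, 26.0 and 55.3, those of 6 months at 67.4, 44.4 and 46.7 and those of 24 months at 118, 117 and 94.4. Neighbouring ages overlapped until 6 months, and the 24-month libraries lay above all others. Tap1 rose 2.08-fold from 6 to 24 months (log2 change 1.06, SE 0.28, limma adjusted p = 0.0177) and 4.95-fold from P18 to 24 months (log2 change 2.31, SE 0.28, limma adjusted p = 2.77e-06). The rise from P18 to P75 (log2 change 0.84, SE 0.28, limma adjusted p = 0.0251) was no longer called without P18 replicate 1 (adjusted p = 0.11) or without P75 replicate 3 (adjusted p = 0.132). From P75 to 6 months the change was not called (log2 change 0.40, adjusted p = 0.241), but it was without P75 replicate 3 (0.65, adjusted p = 0.083).

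Tapbp, which bridges the transporter and the empty heavy chain, had its largest step between P75 and 6 months. It was at 278, 301 and 296 at P18, 343, 370 and 321 at P75, 468, 517 and 447 at 6 months and 494, 545 and 570 at 24 months. The libraries did not overlap up to 6 months, and those of 6 and 24 months did. The log2 change was 0.47 from P75 to 6 months (SE 0.10, limma adjusted p = 0.000741) and was not called from 6 to 24 months (0.17, SE 0.10, adjusted p = 0.227). The small rise from P18 to P75 (log2 change 0.24, SE 0.10, limma adjusted p = 0.0596) was lost without P18 replicate 1, P75 replicate 1 or P75 replicate 2, under quantile normalization (adjusted p = 0.139) and in a fit of only these 2 ages (adjusted p = 0.116). Over the whole span Tapbp rose 1.83-fold, the least of the members that rose.

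**Figure D3:**
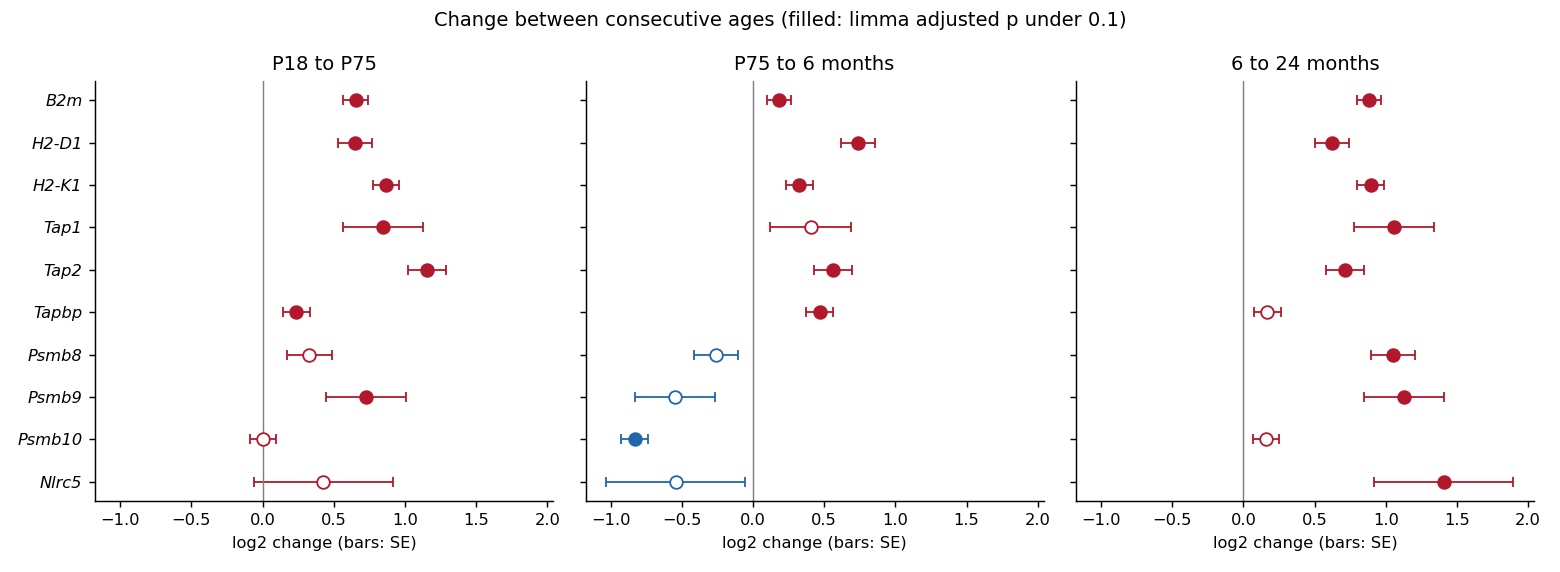
Log2 change of each member between consecutive ages, with bars of 1 SE from the limma fit, red for positive and blue for negative values and filled symbols for an adjusted p under 0.1. In the step from P75 to 6 months the 3 immunoproteasome subunits and Nlrc5 lie below 0 and only Psmb10 is filled, whereas all 10 estimates lie above 0 from 6 to 24 months, with Nlrc5 in the fit only through its 24-month libraries.

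None of the 3 inducible proteasome subunits was called higher between P75 and 6 months. Psmb8, the subunit with chymotrypsin-like activity, was at 49.9, 62.1 and 58.3 at P18, 75.2, 60.3 and 79.6 at P75, 53.6, 66.6 and 58.4 at 6 months and 128, 128 and 117 at 24 months. The libraries of the first 3 ages overlapped, and those of 24 months stood apart. Psmb8 rose 2.07-fold from 6 to 24 months (log2 change 1.05, SE 0.16, limma adjusted p = 0.000796), whereas the steps from P18 to P75 (0.33, adjusted p = 0.109) and from P75 to 6 months (-0.26, adjusted p = 0.177) were not called. The first of these was called without P18 replicate 2 or P75 replicate 2 and under scaling to the same total (adjusted p = 0.0431), and the second without P75 replicate 2 and under quantile normalization (adjusted p = 0.0849).

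Psmb9, which replaces Psmb6, was a low-abundance transcript. Its values were 17.8, 18.1 and 39.2 at P18, 32.1, 50.1 and 37.6 at P75, 33.3, 24.9 and 22.4 at 6 months and 55.5, 68.1 and 54.6 at 24 months. One P18 library, replicate 3, lay within the P75 range. Psmb9 rose 2.19-fold from 6 to 24 months (log2 change 1.13, SE 0.28, limma adjusted p = 0.0123) and 2.47-fold from P18 to 24 months (log2 change 1.30, SE 0.28, limma adjusted p = 0.000716). The rise from P18 to P75 (log2 change 0.73, SE 0.28, limma adjusted p = 0.0488) was lost without P18 replicate 1, P18 replicate 2 or P75 replicate 2, with adjusted p from 0.176 to 0.181. The estimate of -0.55 from P75 to 6 months was not called (adjusted p = 0.11), but was called without P18 replicate 1, P18 replicate 3, P75 replicate 1 or 6mo replicate 1 (adjusted p from 0.0411 to 0.0959).

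Psmb10, the counterpart of Psmb7, was the only member that fell. It was at 1391, 1490 and 1578 at P18, 1373, 1562 and 1540 at P75, 742, 845 and 934 at 6 months and 971, 922 and 909.9 at 24 months. The early 2 ages lay wholly above the later 2, and within each pair the libraries overlapped. The fall took place between P75 and 6 months, by 0.83 on the log2 scale (SE 0.09, limma adjusted p = 3.21e-06). The change was near 0 from P18 to P75 (adjusted p = 0.976) and not called from 6 to 24 months (0.16, SE 0.09, adjusted p = 0.239). Psmb10 was thus 1.59-fold lower at 24 months than at P18 (log2 change -0.67, SE 0.09, limma adjusted p = 1.09e-05).

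Each inducible subunit was next compared with the constitutive subunit of the same active site in the same library, so that the scaling of libraries cancels. Psmb8 was at 1.46% ± 0.243 of the count of Psmb5 at P18, then at 1.97% ± 0.478 at P75, 2.75% ± 0.235 at 6 months and 5.52% ± 0.343 at 24 months (SD, n = 3). Psmb9 was at 0.551% ± 0.214 of Psmb6 at P18, then at 0.983% ± 0.119 at P75, 1.04% ± 0.325 at 6 months and 2.09% ± 0.249 at 24 months. Both shares were highest in the 3 libraries of 24 months, although the inducible subunits remained a small part of the counts. The shares compare counts without correction for gene length and are read only between ages.

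For Psmb10 relative to Psmb7 the share was 19.2% ± 1.46 at P18, then 23.4% ± 0.376 at P75, 19.5% ± 1.22 at 6 months and 21.2% ± 0.482 at 24 months. Over the 12 libraries it ranged from 17.7% to 23.8%, while both subunits fell. An exact permutation test over the 369600 arrangements of 12 libraries into 4 ages, two-sided by construction, gave p = 0.00039 for Psmb8, p = 0.000779 for Psmb9 and p = 0.00455 for Psmb10, with Benjamini-Hochberg adjusted values over the 3 ratios of 0.00117, 0.00117 and 0.00455. The test exchanged all libraries freely and took no account of a possible pairing of P75 with 6-month libraries. The log2 ratio was higher at 24 months than at P18 by 1.92 for Psmb8, by 1.95 for Psmb9 and by only 0.14 for Psmb10. The constitutive subunits themselves fell from P18 to 24 months, Psmb5 by 0.80, Psmb6 by 0.64 and Psmb7 by 0.81 on the log2 scale.

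**Figure D4:**
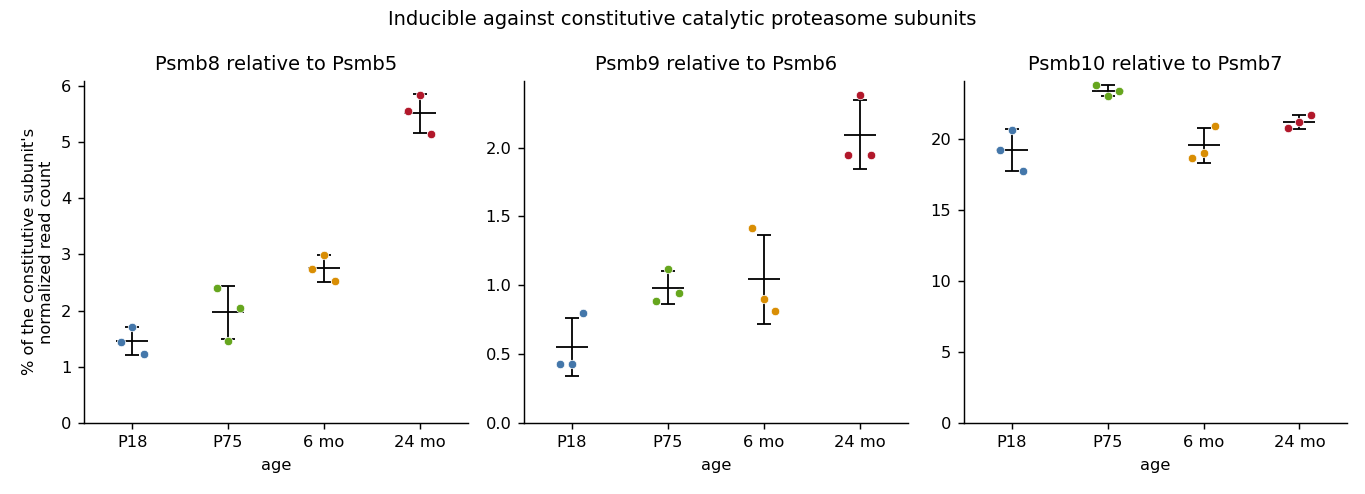
Normalized read count of each inducible proteasome subunit as a percentage of its constitutive counterpart (vertical axes from 0) at the 4 ages, with 1 point per library, the bar at the mean and the error bar at the SD of 3 libraries. Psmb8 and Psmb9 reach 5.52% and 2.09% at 24 months, above all libraries of other ages, whereas Psmb10 stays between 17.7% and 23.8% of Psmb7.

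Nlrc5, the coactivator of class I promoters, was near the limit of detection. Its normalized read counts were 2.38, 12.4 and 10.04 at P18, 6.01, 14.8 and 9.95 at P75, 8.94, 7.1 and 3.89 at 6 months and 19.8, 22.7 and 13.9 at 24 months, from 2 to 21 reads per library. The 24-month libraries were above those of 6 months and P18 and overlapped with P75. The log2 difference was 1.41 from 6 to 24 months and 1.29 from P18 to 24 months, the latter 0.67 without P18 replicate 1. Because the 24-month libraries also carried Nlrc5 past the filter, these differences are given as a description. The fit called both, and the counts of members include these calls, but they are not read as a test of Nlrc5. The annotation of this build lists Nlrc5 as a lincRNA, so the counted exons may differ from those of the coding gene.

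Per kb of annotated exon, the order at 24 months was B2m (7630 ± 782, SD, n = 3), Psmb10 (736 ± 25.4), H2-D1 (538 ± 60.7), H2-K1 (427 ± 34.1), Tapbp (163 ± 11.7), Tap2 (95.9 ± 8.70), Psmb8 (45.3 ± 2.33), Tap1 (20.03 ± 2.42), Psmb9 (16.2 ± 2.07) and Nlrc5 (2.58 ± 0.617), as normalized read count per kb. Tap1 and Psmb9 overlapped in their libraries, and the other neighbours in this order did not. At P18 Psmb10 was at 1171 ± 73.5 per kb, compared with 134 ± 17.1 for H2-D1 and 100 ± 4.27 for H2-K1. The light chain was thus far above the heavy chains at both ages, and the lengths rest on GENCODE models that may differ from those the authors used.

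Over the 12 libraries, the members' log2 values were compared with the mean of their standardized profiles, to which each contributes. Pearson's r was 0.96 for B2m, 0.95 for H2-K1, 0.93 for Tap1 and Tap2, 0.92 for H2-D1, 0.89 for Psmb8, 0.86 for Psmb9, 0.84 for Tapbp, 0.74 for Nlrc5 and -0.55 for Psmb10. Among 11262 genes with a mean over 100, leaving out the members and the other pathway genes listed, the profiles most like this mean were those of C4b (r = 0.97), a complement component, Gnptg, Tmem14a, Atp13a1, Lrrc8a, Ifi27l1, an interferon-responsive gene, Pcdhb9 and C1qb (r = 0.96), a complement component and microglial marker. C4b had a mean normalized read count of 163 at P18, then 354 at P75, 461 at 6 months and 1893 at 24 months, and C1qb of 1044, 1348, 1624 and 3084. Of these genes only C1qb was among the cell type markers followed here, and no function shared by them was tested. These correlations share libraries and the ordering by age, and are given as a description.

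The microglial markers moved with the members. The summed normalized read count of 15 microglial genes lay between 8357 and 9645 at P18, 12665 and 14098 at P75, 14475 and 16468 at 6 months and 22724 and 28482 at 24 months, without overlap between ages and with 0 of the genes at 0. Of these genes, 14 rose and 0 fell from P18 to 24 months, beside 34.7% and 34.3% of all genes. The median log2 change of the 15 was 1.40. From 6 to 24 months 9 rose, including Cd68, C1qa, Trem2 and Tyrobp, and 0 fell, beside 16.6% and 12.7% of all genes. The log2 changes of Cx3cr1 (0.11), Tmem119 (0.20) and P2ry12 (0.24), receptors and surface proteins of resting microglia, were not called in this step. From P75 to 6 months 8 rose and 2, Aif1 and Tyrobp, fell, beside 31.2% and 29.4% of all genes. The part of microglial RNA in the members' changes was not tested.

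Set against the microglial sum in the same library, the members differed among themselves. B2m was at 21.6% ± 1.03 of the sum at P18 and 25.6% ± 2.03 at 24 months (SD, n = 3). H2-D1 went from 3.802% ± 0.819 to 5.44% ± 0.519, H2-K1 from 2.85% ± 0.232 to 4.36% ± 0.414 and Tap2 from 0.729% ± 0.118 to 1.41% ± 0.0347, and for these 4 genes the libraries of both ages did not overlap. Tap1, Psmb8, Psmb9 and Nlrc5 overlapped between P18 and 24 months on this scale. Tapbp went from 3.19% ± 0.330 to 2.10% ± 0.0874 and Psmb10 from 16.3% ± 2.31 to 3.68% ± 0.547, both without overlap. No test was run on these shares. How many of all genes separate between these ages on this scale was not determined, so the lack of overlap is a description only.

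**Figure D5:**
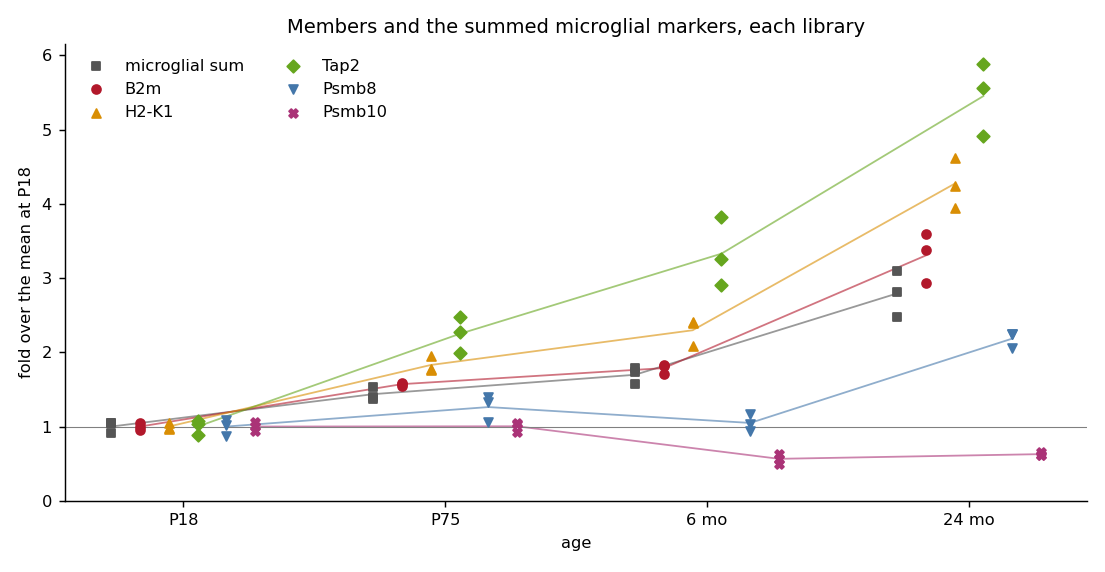
Level of B2m, H2-K1, Tap2, Psmb8, Psmb10 and the summed 15 microglial markers in each of the 12 libraries, as fold over the mean of the 3 P18 libraries, with 1 point per library and lines through the age means. Tap2 and H2-K1 lie above the microglial sum from P75 on, B2m lies close to it, and Psmb8 and Psmb10 lie below it at 6 and 24 months.

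Markers of other cells that a brain fraction can hold were followed over the same ages. The counts compare P18 with 24 months, where 34.7% of all genes rose and 34.3% fell. Of 11 endothelial genes, 6 rose and 2 fell (4 and 3 under quantile normalization), and their sum was 927 to 1126 at P18 and 1073 to 1259 at 24 months. Of 5 pericyte genes 3 rose and 1 fell, of 9 astrocyte genes 6 rose and 1 fell, and of 10 neuronal genes 5 rose and 3 fell. Of 10 myelin and oligodendrocyte genes, 0 rose and 8 fell, most of this before P75, where 8 fell, beside 22.9% of all genes. The red blood cell gene Alas2 fell from 416 ± 55.1 at P18 to 41.1 ± 4.32 at P75 (SD, n = 3), and Hbb-b1 and Hba-a1 are listed at 0 in all libraries.

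Transcripts of T cells, which recognise class I molecules, were close to 0. Cd3e was at 0 to 1.13 at P18 and at 2.97, 5.41 and 5.55 at 24 months, Cd8a at 1.19, 3.39 and 4.02 and at 3.96, 7.57 and 4.63, and Cd8b1 was listed at 0 in every library of P18 and P75 and at 1.98, 1.08 and 1.85 at 24 months. The 24-month values of Cd3e lay above those of the other ages, but correspond to few reads. Only Cd4, which microglia also express, passed the filter, and it fell from P18 to 24 months by 0.52 on the log2 scale (SE 0.19, limma adjusted p = 0.0243).

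Beyond the members, 56 further genes of the pathway were followed, of which 55 had a row and 45 passed the filter. From P18 to 24 months 23 rose and 11 fell, where 34.7% of all genes rose and 34.3% fell, with a median log2 change of 0.38. In the 3 consecutive steps 14, 14 and 10 rose, beside 25.9%, 31.2% and 16.6% of all genes, and 9, 10 and 2 fell, beside 22.9%, 29.4% and 12.7%.

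Of 9 other class I and class I-like heavy chains tested, 8 rose and 0 fell from P18 to 24 months. Over all genes the shares were 34.7% and 34.3%. H2-M3, which presents formylated peptides, went from 29.7 ± 5.78 at P18 to 119 ± 23.6 at 24 months (SD, n = 3; log2 change 1.97, SE 0.19). H2-T23, the ligand of inhibitory NKG2A receptors, went from 133 ± 23.9 to 407 ± 18.8 (log2 change 1.62, SE 0.13). Hfe, which controls iron uptake, and Mr1, which presents vitamin B metabolites, rose by 1.41 and 0.98 on the log2 scale. Only H2-M3 and H2-T23 among the 9 were called from 6 to 24 months, where 16.6% of all genes rose and 12.7% fell.

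Of 7 peptide loading and trimming partners, 6 rose and 1, Sec61b of the translocation channel, fell from P18 to 24 months. Over all genes 34.7% rose and 34.3% fell. From P75 to 6 months 5 of the 7 rose and 1 fell, beside 31.2% and 29.4% of all genes. Tapbpl, a peptide editor related to tapasin, was at 44.9 ± 2.27 at P18, then at 57.3 ± 12.8 at P75, 157 ± 12.8 at 6 months and 157 ± 11.1 at 24 months (SD, n = 3), and its log2 change from P75 to 6 months was 1.46 (SE 0.16). Erap1, which trims peptides in the endoplasmic reticulum, went from 84.5 ± 23.3 at P18 to 216 ± 32.9 at 6 months and 244 ± 29.8 at 24 months. Canx, a chaperone of new heavy chains, rose by 1.35 and Hspa5, a general chaperone of that compartment, by 1.32 on the log2 scale from P18 to 24 months, with Hspa5 spread from 6060 to 14638 among the 24-month libraries.

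Most of the other proteasome genes fell. Of 7 activator, assembly and constitutive catalytic subunits, 0 rose and 5 fell from P18 to 24 months, beside 34.7% and 34.3% of all genes. From P75 to 6 months 6 fell and 1, Psme3, rose, beside 29.4% and 31.2% of all genes. Pomp, the assembly factor that favours immunoproteasomes, went from 5985 ± 624 at P75 to 3346 ± 384 at 6 months (SD, n = 3), by a log2 change of -0.84 (SE 0.10). Psmb5 went from 3721 ± 530 to 2165 ± 184, Psmb6 from 4026 ± 441 to 2621 ± 232 and Psmb7 from 6384 ± 534 to 4294 ± 279 in the same step. From 6 to 24 months no call among these 7 held under every scaling.

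Of 12 transcription factors of class I promoters, 1, Irf1, rose and 5 fell from P18 to 24 months. Over all genes 34.7% rose and 34.3% fell. Under quantile normalization 0 of the 12 rose and 8 fell, where 4376 of 14634 genes rose and 5952 fell. Rfxap, a subunit of the RFX complex, went from 1065 ± 109 to 530.2 ± 10.7 (SD, n = 3; log2 change -0.9995, SE 0.10). The NF-Y subunits Nfya, Nfyb and Nfyc, which bind the CCAAT letters seen in the promoters, fell by 0.71, 0.63 and 0.71 on the log2 scale. From 6 to 24 months Irf8, a factor of myeloid cells, rose by 0.50 on the log2 scale and none of the other 11 was called. In this step 16.6% of all genes rose and 12.7% fell.

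Of 10 interferon receptors and signal transducers, 8 rose and 0 fell from P18 to 24 months, beside 34.7% and 34.3% of all genes. Ifnar2, a chain of the type I interferon receptor, was at 234 ± 5.38 at P18, then at 431 ± 33.5 at P75, 486 ± 7.77 at 6 months and 635 ± 35.8 at 24 months (SD, n = 3), a log2 change of 1.43 over the whole span (SE 0.09). Ifngr1, a chain of the interferon-gamma receptor, rose by 1.31 and Irf9, a transcription factor of the interferon response, by 0.90 on the log2 scale. Irf9 rose from 6 to 24 months (log2 change 0.69, SE 0.14), and its changes in the earlier steps were not called. In the step from 6 to 24 months 5 of the 10 rose and 1, Jak1, fell, beside 16.6% and 12.7% of all genes. Under scaling to the same total 3 rose and 1 fell, where 1394 of 14634 genes rose and 1614 fell.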

How the data were processed

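The deposited signal was the normalized read count of 21937 genes in 12 libraries of myelin RNA, 3 at each of 4 ages, per the labels. The study states individual brains for 6 months. The authors aligned reads to mm9 with TopHat2 2.0.8, processed them with SAMtools 0.1.19, counted them per gene with HTSeq 0.5.4p1 and divided by DESeq size factors (versions from the submitters' processing notes, whereas the paper's methods name another TopHat version). The handling of strand and of multiply matching reads is not given in the sources used here. Within each library the values divided by that of a single read came out whole (100% within 0.02), which gave depths of 20299052 to 27214385 reads. No 2 libraries of an age agreed within sampling noise.

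Genes with a mean of at least 10 (14634) were fitted with limma 3.58.1 (R 4.3.3; trend, empirical Bayes) on log2(value + 1), with age alone in 1 fit, and called at a Benjamini-Hochberg adjusted p under 0.1. The self-test on simulated data for 6 to 24 months recovered 200 of 200 genes changed 3-fold among 14634 and called 16 others. The changed genes were drawn from the more abundant genes only, with the same dispersion for every gene. The recovery therefore does not cover smaller changes or low counts such as those of Psmb9 and Nlrc5. Alternatives were other pseudocounts, filters, scalings and thresholds, a fit of only the ages compared, a replicate block, each library left out in turn, and edgeR 4.0.16 and DESeq2 1.42.0 on the recovered reads. With 3 libraries against 3, an exact test of a single gene cannot give p below 0.1, so single genes were tested only in the fit over all genes. The permutation test of the ratios was computed directly with numpy 2.4.6.

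The members and the lists were chosen with earlier results of these data known. From each of 5 pathway lists the text names up to 4 genes with the largest absolute log2 change from P18 to 24 months among those called with a mean over 100 at either age, and the constitutive proteasome subunits. Sec61b, Psme3, Irf1, Irf8, Jak1, Aif1, Alas2 and the other marker genes named were chosen after their values were seen. One gene that this rule names is not reported here. The 8 genes of like profile had the highest Pearson r. Replicate numbers were shared by ages without a stated pairing. Deviations of same-numbered libraries correlated at 0.161, 0.101 and 0.187 between P75 and 6 months, all above 0.1, so these libraries were treated as possibly paired and the blocked fit was compared, and at -0.213 to 0.0286 otherwise. Gene positions and lengths came from GENCODE vM1 on NCBIM37, promoters from RefSeq on GRCm38.p6.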

Additional observations from a re-analysis of the deposited data

How the results depend on the processing

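The count of members called held within 1.5 times under every alternative but 3. It was 4 in place of 7 from P18 to P75 without P18 replicate 1. With a filter for a mean over 100 it was 4 from 6 to 24 months and 6 from P18 to 24 months, because only 6 members were then tested. Leaving out each library in turn gave 4 to 7 members called from P18 to P75, 5 to 7 from P75 to 6 months, 7 to 8 from 6 to 24 months, 8 to 10 from P75 to 24 months and 9 to 10 from P18 to 24 months. These counts include Nlrc5, which passed the filter only through its 24-month libraries. It was the only member whose call from 6 to 24 months or from P18 to 24 months changed when a library was left out. With the replicate block the counts were 7, 6, 8, 8 and 10, as without it, it changed no call of a member, and the counts of other pathway genes were 23, 25, 11, 30 and 34.

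The log2 change of Psmb10, P18 to P75, which was not called, turned to -0.007603 with edgeR and lay between -0.042 and 0.063 with a library left out. The log2 change of Nlrc5, P18 to P75, also not called, turned to -0.19 without P18 replicate 1 and reached 0.80 without P18 replicate 2. The cause of these turns was not tested. Of the other member log2 changes 1074 kept direction and side of the threshold, 26 lost and 25 gained the call. The 42 alternative values of the ratios also kept direction and side of their threshold. The 115 alternative counts of other pathway genes stayed within 1.5 times the main count, with 9 to 15 called from 6 to 24 months when a library was left out. Scaling to the same total moved the median of all genes from P18 to P75 to 0.14 (log2), with 4739 higher and 1827 lower in place of 3783 and 3354, and from 6 to 24 months gave 1394 higher and 1614 lower in place of 2435 and 1852. Depth limits Nlrc5 most.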
